A study of Mus musculus with 4 samples.

Results

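Fibronectin, the matricellular proteins and the proteins of basement membranes are secreted parts of the extracellular matrix. Fibronectin forms fibrils that cells hold through integrins. Matricellular proteins such as SPARC, thrombospondins, tenascin C, periostin and osteopontin sit in the matrix and modulate adhesion more than they bear load. Laminins, nidogen and perlecan, with type IV collagen, build the thin sheets called basement membranes. All of these proteins enter the endoplasmic reticulum as they are made, so their RNAs are translated on that organelle's membrane.

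The 10 genes described are Fn1, Sparc, Thbs2, Tnc, Postn, Lamb1, Lamc1, Nid1, Hspg2 and Spp1, chosen by name. Each was represented by every probe set of the array that the platform annotation assigns to that gene symbol alone. This gave 22 probe sets of the 45101 on the array, from 9 genes. No such probe set was found for Spp1, which encodes osteopontin, and it was not analysed here. The RNA came from NIH/3T3 cells, a mouse fibroblast line, and was hybridised to Affymetrix mouse arrays. The cells were serum-starved, left to spread for 2 h on a porous membrane coated with fibronectin, and exposed for 1 h to lysophosphatidic acid (LPA) at 150 ng/ml in the lower chamber. LPA is a serum phospholipid that drives migration, and the cells sent pseudopodia, which are actin-rich protrusions, through the pores towards it. The 4 arrays comprise 2 of pseudopodia, scraped from the underside after light formaldehyde fixation, and 2 of cell bodies, scraped from the upper side. Both groups were LPA-treated, and no genetic change is named for either. The fibronectin coat is protein and is not read by the arrays.

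Differences are log2 values of pseudopodia minus cell bodies, with the SE of the limma fit and n = 2 arrays per group throughout. They were computed on log2(value + pseudocount), which understates the change of dim probe sets, and p-values were adjusted over all 22519 probe sets bright enough to be kept. The samples are described as independent without saying how the cultures were separated, so p-values speak only to the spread among these 4 samples. In bulk RNA scaled to a common signal, a difference gives an RNA's share relative to other RNAs in the same fraction, and fewer copies per cell cannot be told apart from more of other RNAs. For orientation, Rab13, a GTPase of vesicle traffic, stood at 1.99 ± 0.22 on its brightest probe set (limma adjusted p = 0.0184 over genes). Neat1, a nuclear noncoding RNA, stood at -2.17 ± 0.21 (limma adjusted p = 0.0169). Genes were chosen with earlier results of these data known, so these values are no independent check of the fractions. All 8 fibroblast markers had a probe set, and their summed signals were 84190 and 85035 in pseudopodia against 86156 and 85687 in cell bodies. Of these 8, Vim and both type I collagen chains were bright, while Thy1 and Fap were too dim to be kept. The summed signal was 2423 and 2835 in pseudopodia against 2983 and 2611 in cell bodies for 7 epithelial markers, most of it from a Krt14 probe set. It was at most 129.8 on any array for the endothelial, leukocyte and erythroid lists. For 5 muscle and adipocyte markers it was 343.5 and 467.6 in pseudopodia against 300.1 and 391.3 in cell bodies, most of it from Acta1. A 3′ to 5′ signal ratio of the beta-actin controls, a sign of RNA integrity, was 1.77 and 3.41 in pseudopodia against 1.55 and 1.89 in cell bodies. The same ratio for Gapdh was 0.960 and 1.01 against 0.919 and 0.946. The part of these ratios in the results below was not tested.

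Of the 22 probe sets, 17 had lower values in pseudopodia, and the median difference was -0.45, where 48.2% of all probe sets had lower values and their median was 0.02. The filter on dim signals kept 15 of the 22, from 8 genes, and 2 of these 15 (1 of Lamb1 and 1 of Tnc) had a mean pseudopodia signal under the filter's limit of 30.0. Among the 15, 1 probe set of Fn1 passed the test as lower and none as higher. Over all probe sets kept, 3.38% were called lower and 1.09% higher. Same-numbered arrays share a scan day and an experiment code. A block by replicate number covers both, and is called the scan day or replicate block below. With that block, 5 of the 15 were called lower and none higher. That fit called 11.9% of all probe sets kept lower and 7.31% higher. It has 1 residual degree of freedom against 22.7 from its shared prior, so its p-values rest mainly on the pooled spread. Both pseudopodia arrays lay below both cell body arrays in 9 of the 15 and above them in none, beside 28.3% and 24.7% of all probe sets kept. At least 1.5-fold lower in each of the 4 array pairs were 2 of the 15, against 9.39%. They were Fn1 1437218_at and Lamb1 1451241_at. The Lamb1 probe set passed the filter through its cell body signal alone, so its low value is tied to how it was kept. It is also among the 9 and the 5 counted above. Counted by gene, with the brightest kept probe set taken for each, none of the 8 genes passed (limma), where 1.84% of 10960 genes were lower and 0.976% higher. An unadjusted limma p under 0.05 was found for 3 of the 8 genes, and for 4995 of all 22519 probe sets kept. The latter is a count of probe sets, not of genes. With the scan day as a block 2 of the 8, Lamc1 and Hspg2, were lower (adjusted p = 7.92e-05 and 0.0331 over genes), where 10.1% of all genes were lower and 8.13% higher.

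**Figure D1:**
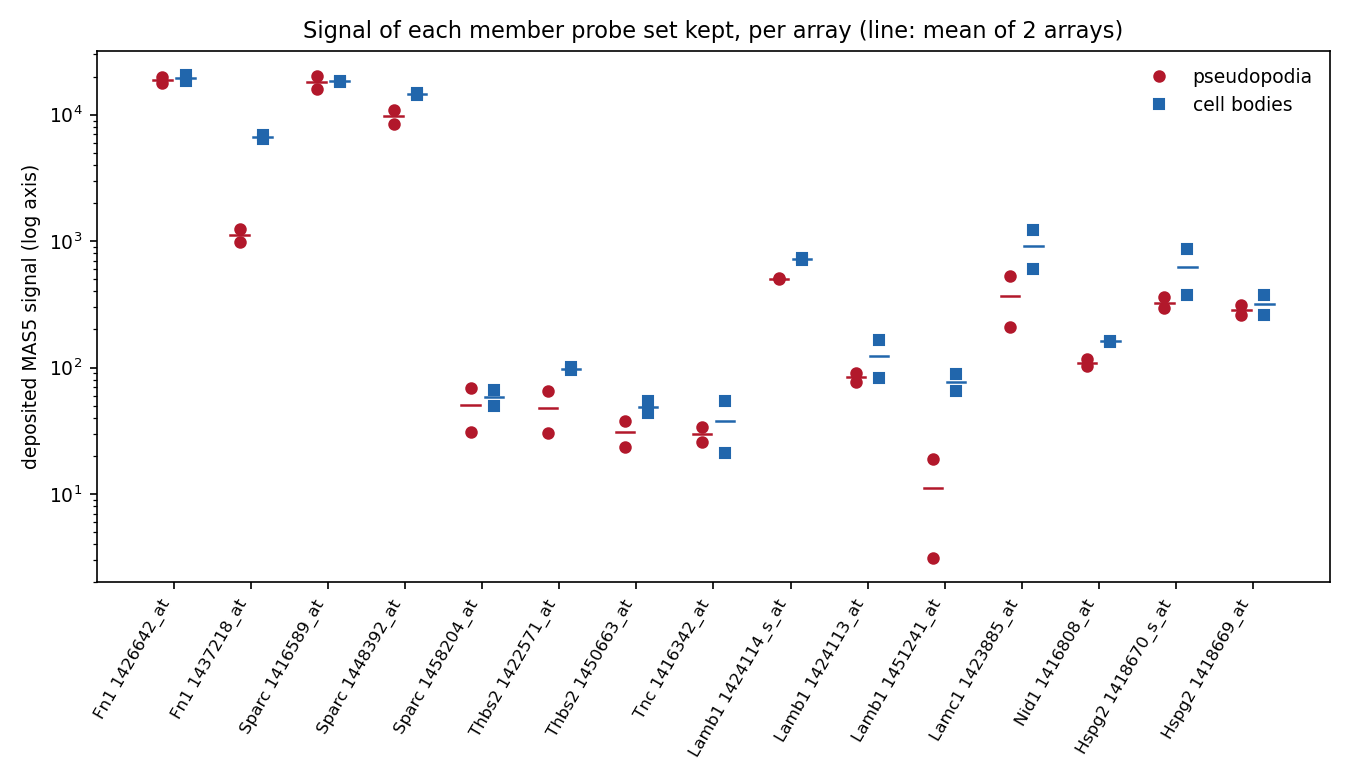
Deposited MAS5 signal (log axis) of the 15 member probe sets kept, with 1 point per array, pseudopodia left of cell bodies, and a line at the mean of the 2 arrays. The second Fn1 probe set, at 1250 and 984 in pseudopodia against 6909 and 6380 in cell bodies, shows a wide gap, while the first overlaps.

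Fn1 encodes fibronectin, the adhesive glycoprotein that links integrins to the matrix, and its 2 probe sets gave different answers. Probe set 1437218_at had signals of 1249.7 and 984.4 in pseudopodia, against 6908.6 and 6380.1 in cell bodies. The ratio of the pseudopodia signal to that of the cell bodies was 0.181 in replicate 1 and 0.154 in replicate 2. Both pseudopodia arrays were far below both cell body arrays, and the gap between fractions exceeded the spread within either one. The difference was -2.56 ± 0.19 (limma adjusted p = 0.00995), or 5.91-fold lower, and was the 23rd lowest of the 22519 probe sets kept. It missed the threshold without the variance trend (adjusted p = 0.0647) and without cell body replicate 1 or 2 (-2.51 and -2.62, adjusted p = 0.153 and 0.139), fits in which limma called no probe set. Probe set 1426642_at had signals of 17824.7 and 19799.3 in pseudopodia, against 18532.6 and 20649.7 in cell bodies. The arrays of the 2 fractions overlapped, and the difference was -0.06 ± 0.13 (adjusted p = 0.840, 95% interval -0.37 to 0.25). It lay outside that interval after quantile normalization (-0.40 ± 0.09, adjusted p = 0.0611) and on hybridization controls (-0.39 ± 0.14, adjusted p = 0.126), and passed in neither fit. All of these values are far from that of the other probe set.

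The gap between the Fn1 probe sets was 2.40 in replicate 1 and 2.62 in replicate 2. Of 5040 genes with at least 2 kept probe sets, 99.2% had a smaller range between their probe sets than Fn1, at 2.51. A called lower probe set beside another within 0.25 of 0 was itself not rare, found in 129 of the 353 genes that had a called lower probe set. Probe set 1426642_at belongs to the brightest on the array, where differences were mostly positive under the scaling used: of 390 probe sets with a mean signal above 10000, 366 had positive differences, the median was 0.35, 19 were called higher and none lower (limma). After quantile normalization their median was 0.0087 (11 lower and 7 higher), but that step gives all arrays the same distribution and so cannot show such a lean. On hybridization controls it was 0.014 (11 lower and 5 higher), where the median of all probe sets kept was -0.32. The bright probe sets thus still stood above the rest there. Of the 390, 5.38% had a lower value than this Fn1 probe set (4.87% after quantile normalization). The part of the Fn1 transcript that each probe set reads was not analysed here.

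**Figure D2:**
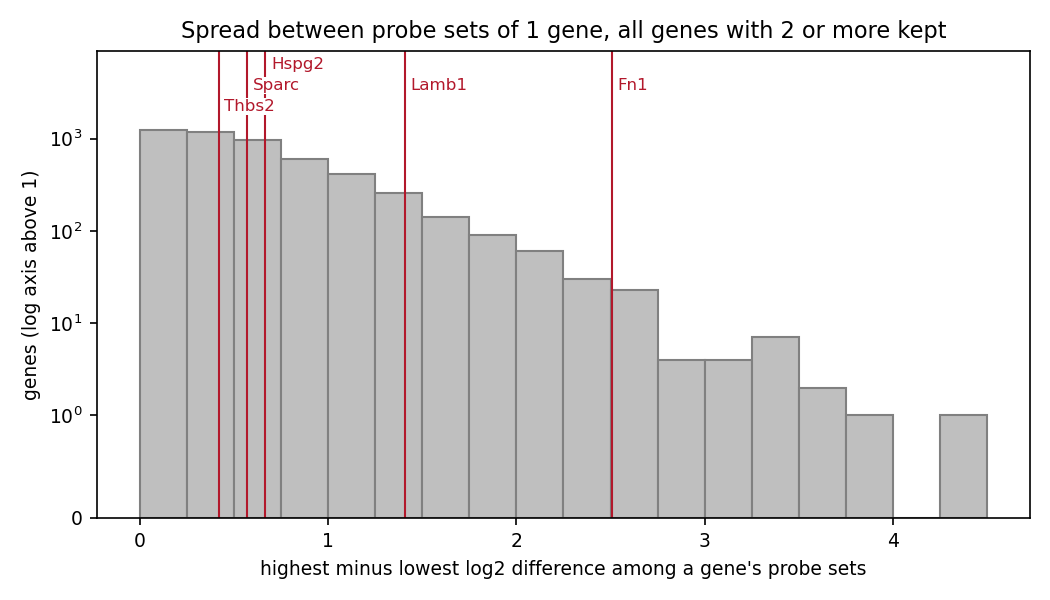
Number of genes (axis logarithmic above 1) by the range between the highest and the lowest log2 difference of their kept probe sets. Lines mark the member genes with at least 2 kept probe sets, from Thbs2 at 0.42 to Fn1 at 2.51.

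Sparc encodes SPARC (osteonectin), a collagen-binding matricellular protein, and was read by 3 probe sets that passed the filter. Probe set 1416589_at had signals of 16019.0 and 20365.4 in pseudopodia, against 18180.2 and 18641.4 in cell bodies. The 2 pseudopodia values enclosed those of the cell bodies, and the difference was -0.03 ± 0.15 (limma adjusted p = 0.939). It was -0.35 ± 0.11 after quantile normalization and -0.36 ± 0.13 on hybridization controls, past the threshold in neither (adjusted p = 0.133 and 0.143). Among the 390 brightest probe sets, 5.64% had a lower value. Probe set 1448392_at had signals of 10984.1 and 8501.1 in pseudopodia, against 14425.2 and 14851.1 in cell bodies. Here the fractions did not overlap, and the difference of -0.60 ± 0.16 missed the threshold (adjusted p = 0.0785). It was past the threshold with the scan day as a block (adjusted p = 0.00149), after quantile normalization (-0.92, adjusted p = 0.0334) and on hybridization controls (-0.93, adjusted p = 0.0415). None of the 390 bright probe sets had a lower value than this one, under these scalings too. Probe set 1458204_at was dim, at 69.4 and 31.0 in pseudopodia and 49.5 and 66.6 in cell bodies, with opposite signs in the 2 replicates (0.38 and -0.81).

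Thbs2 encodes thrombospondin 2, a matricellular protein that inhibits angiogenesis and takes part in collagen fibril assembly. Its probe set 1422571_at had signals of 65.1 and 30.1 in pseudopodia, against 96.2 and 100.2 in cell bodies. Both pseudopodia arrays were lower, by unequal amounts, and the difference of -0.90 ± 0.36 did not pass (limma adjusted p = 0.191). It was -1.31 without pseudopodia replicate 1, where it passed (adjusted p = 0.0157), and -0.49 without pseudopodia replicate 2. Probe set 1450663_at lay in the same direction, at 38.0 and 23.7 in pseudopodia against 53.9 and 43.8 in cell bodies (-0.48 ± 0.38, adjusted p = 0.512). The remaining probe set, 1447862_x_at, was too dim to be kept, with 31.1 and 24.2 in pseudopodia against 0.9 and 12 in cell bodies, and without the filter it did not pass (adjusted p = 0.361).

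Tnc encodes tenascin C, a large glycoprotein of remodelling tissue, and Postn encodes periostin, a matricellular protein that binds fibronectin and collagen. Both were near the lower end of the signal range. Tnc probe set 1416342_at had 33.6 and 25.8 in pseudopodia, against 54.8 and 21.0 in cell bodies. The cell body values enclosed those of the pseudopodia, and the difference was -0.17 ± 0.46 (limma adjusted p = 0.872). The second Tnc probe set did not exceed 2.0 on any array. The single Postn probe set had 4.6 and 32.2 in pseudopodia, against 3.4 and 12.3 in cell bodies, and was not kept. At these signals no difference between fractions was detectable for either gene.

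**Figure D3:**
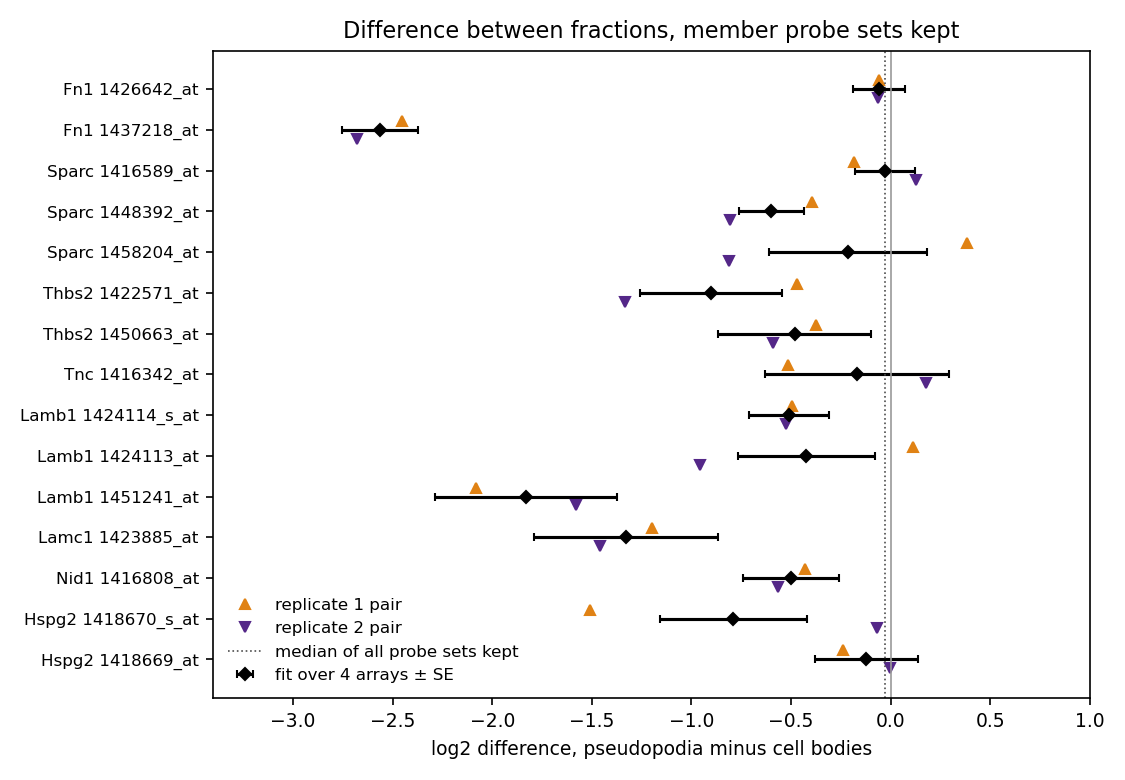
Log2 difference, pseudopodia minus cell bodies, of the 15 member probe sets kept. Diamonds with bars are the fit over 4 arrays ± SE, triangles are the 2 replicate pairs, and the dotted line is the median of all probe sets kept (-0.03). All 15 diamonds lie below 0, from -0.03 (Sparc) to -2.56 (Fn1), beside 52.3% of all probe sets kept. Before the filter on dim signals, 17 of the 22 member probe sets had lower values. After quantile normalization Hspg2 1418669_at stood at 0.010.

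The laminin chains encoded by Lamb1 (beta 1) and Lamc1 (gamma 1) pair with an alpha chain into the trimers that start a basement membrane. Lamb1 probe set 1424114_s_at had 502.4 and 508.4 in pseudopodia against 714.2 and 737.7 in cell bodies. The pseudopodia were lower in both replicates by nearly the same ratio (0.703 and 0.689), yet the difference of -0.51 ± 0.20 did not pass (limma adjusted p = 0.192). Its SE is moderated towards the spread of other probe sets. Probe set 1451241_at of Lamb1 had 3.1 and 19.0 in pseudopodia, against 64.7 and 88.6 in cell bodies. Its difference of -1.83 ± 0.46 missed the threshold (adjusted p = 0.0655) and passed it with the scan day as a block (0.00708) and on hybridization controls (0.0281). This probe set was kept through its cell body signal alone, and 1.07% of all probe sets kept had a lower value. Probe set 1424113_at of Lamb1 overlapped between fractions, at 90.2 and 77.4 in pseudopodia against 82.2 and 165.5 in cell bodies (-0.42 ± 0.34, adjusted p = 0.520). The fourth, 1446180_at, was not kept and did not exceed 23.2.

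Lamc1 probe set 1423885_at had signals of 530.0 and 209.6 in pseudopodia, against 1235.1 and 604.1 in cell bodies. Replicate 1 was higher than replicate 2 in both fractions, while the ratio of pseudopodia to cell bodies was similar in the 2 replicates (0.429 and 0.347). The difference was -1.33 ± 0.46 (limma adjusted p = 0.145), and the adjusted p was 5.94e-05 when the scan day was a block. It was -1.97 without pseudopodia replicate 1, where it passed (adjusted p = 2.5e-05), and -0.69 without pseudopodia replicate 2. The other Lamc1 probe set, 1423886_at, was dim and lay the other way in both replicates, with 49.0 and 20.2 in pseudopodia against 24.2 and 9.1 in cell bodies. It was not kept, and without the filter its difference was 0.61 (adjusted p = 0.661).

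Nid1 encodes nidogen 1, which bridges laminin and type IV collagen, and Hspg2 encodes perlecan, the large heparan sulfate proteoglycan of basement membranes. Nid1 probe set 1416808_at had 116.0 and 102.8 in pseudopodia, against 161.9 and 160.0 in cell bodies, with no overlap. Its difference was -0.50 ± 0.24 (limma adjusted p = 0.272). The other 2 Nid1 probe sets were not kept. One of them, 1441519_at, had 2.2 and 1.0 in pseudopodia against 8.8 and 8.7 in cell bodies, and the other, 1448469_at, overlapped.

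For Hspg2 the result depended on 1 array. Probe set 1418670_s_at had 294.2 and 359.6 in pseudopodia, against 866.9 and 377.9 in cell bodies. The ratio of the pseudopodia signal to that of the cell bodies was 0.339 in replicate 1 and 0.952 in replicate 2. The difference was -0.79 ± 0.37 (limma adjusted p = 0.261, 0.0317 with the scan day as a block), and it was -0.21 without cell body replicate 1 and -1.37 without cell body replicate 2. Probe set 1418669_at of Hspg2 gave 315.2 and 260.0 in pseudopodia, against 374.8 and 260.7 in cell bodies (-0.12 ± 0.26, adjusted p = 0.828). The values of replicate 2 were almost equal there.

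Of 10 measured basement membrane genes outside the members, 4 were lower in pseudopodia and none higher, beside 1.84% of all 10960 genes lower. The fit that takes the scan day as a block called 6 lower, beside 10.1% of all genes. In this and the following lists a gene is represented by the brightest of its kept probe sets, with p adjusted over genes. The median was -0.79, where that of all genes was 0.02. It was -0.50 without pseudopodia replicate 1, and -0.02 over 18 genes without the filter on dim probe sets, with 1 gene called. Lamb2, the laminin beta 2 chain, had 228.0 and 256.4 in pseudopodia against 693.9 and 943.1 in cell bodies (-1.68 ± 0.24, limma adjusted p = 0.0309). The type IV collagen chains Col4a6, Col4a5 and Col4a2 stood at -1.67 ± 0.33, -1.06 ± 0.18 and -0.98 ± 0.19 (limma adjusted p = 0.0480, 0.0408 and 0.0453). Col4a6 missed the threshold with a pseudocount of 16 (adjusted p = 0.0522), with median centring (0.0612) and after quantile normalization (0.0512). Agrn, the heparan sulfate proteoglycan agrin, stood at -0.88 and did not pass (adjusted p = 0.0970), while Lamc3 and Col4a4 had positive values of 0.22 and 0.12.

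Among 10 measured matricellular relatives, 2 were lower and none higher, beside 1.84% and 0.976% of all genes. All 10 had negative values, with a median of -0.63. The fit blocked by scan day called 5 lower, beside 10.1% of all genes. Without the filter the median over 18 genes was -0.25 and limma called none. An unadjusted limma p under 0.05 was found for 5 of these 18 genes. In that fit 6143 of all 45037 probe sets had one, a count over probe sets and not over genes. Thbs1, thrombospondin 1, an activator of latent TGF-beta, had 170.4 and 93.7 in pseudopodia against 496.4 and 455.8 in cell bodies (-1.78 ± 0.29, limma adjusted p = 0.0393). Thbs3, thrombospondin 3, had 173.6 and 239.4 in pseudopodia against 587.9 and 591.2 in cell bodies (-1.46 ± 0.24, limma adjusted p = 0.0392). Of the measured genes with a Thbs symbol, Thbs1 and Thbs3 therefore passed and Thbs2 did not, and the difference between them was not tested. The CCN proteins Ccn1 and Ccn2, which serum and LPA are known to induce, stood at -1.12 ± 0.54 and -0.95 ± 0.32 without passing (adjusted p = 0.288 and 0.147).

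The receptors of these proteins were measured by 16 genes, of which 2 were lower and none higher, beside 1.84% and 0.976% of all genes. Their median was -0.84, and 12 of the 16 had negative values. The highest value was that of Itga9, at 1.26 ± 0.48, which did not pass (limma adjusted p = 0.189). Its signals were dim, at 36.6 and 62.0 in pseudopodia against 5.3 and 17.4 in cell bodies. Without the filter the median over 20 genes was -0.79 and limma called none. The fit blocked by scan day called 10 lower, beside 10.1% of all genes. Itgb5, an integrin beta chain that binds vitronectin, had 4271.6 and 3948.0 in pseudopodia against 7454.4 and 9399.2 in cell bodies (-1.02 ± 0.17, limma adjusted p = 0.0399). Without cell body replicate 2 another Itgb5 probe set was the brightest, at -0.53, so that fit does not show how this probe set moved. Dag1, dystroglycan, a receptor of laminin and perlecan, stood at -1.02 ± 0.19 (limma adjusted p = 0.0421), and 3 further probe sets of it were called lower. Itga5, the alpha chain of the main fibronectin receptor, was singled out after its values were seen. Its brightest probe set had 1506.0 and 457.9 in pseudopodia against 3547.6 and 1564.9 in cell bodies and did not pass (-1.48 ± 0.56, adjusted p = 0.182). Of its dimmer probe sets, 1457561_at and 1458996_at were called lower, at -2.11 and -1.99 (adjusted p = 0.0268 and 0.0255 over probe sets). Itgb1, its partner chain, also chosen after its values were seen, stood at -0.88 (adjusted p = 0.0733), with -1.78 on 1452545_a_at (adjusted p = 0.0365 over probe sets). Itgav, another integrin alpha chain that binds fibronectin, stood at 0.07, and at -0.93 on 1421198_at (adjusted p = 0.229 over probe sets).

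By brightest probe set the 8 member genes had a median of -0.50. The median of 13 measured collagen chains was -0.43, and of 14 elastic fibre genes -0.55. The order of these medians was not stable: after quantile normalization they were -0.40 for the members, -0.77 for collagen chains and -0.47 for elastic fibre genes. No member gene, 4 collagen chains (Col5a1, Col5a2, Col6a3 and Col16a1) and 2 elastic fibre genes (Fbln2, fibulin 2, and Emilin1) were lower, and none in any of the 3 groups was higher. Over all genes 1.84% were lower and 0.976% higher. With the scan day as a block, 2 member genes, 9 collagen chains and 6 elastic fibre genes were lower, beside 10.1% of all genes. After quantile normalization 8 collagen chains were lower, where that fit called 303 of all 10960 genes, 104 of them higher. Fbln2, which binds fibronectin and nidogen, had 2979.1 and 2564.2 in pseudopodia against 7251.4 and 8579.5 in cell bodies (-1.51 ± 0.17, limma adjusted p = 0.0221). As with Fn1, another probe set of the gene, 1438375_at, had a larger difference (-2.38, adjusted p = 0.0189 over probe sets), but here both were called lower. Lox, lysyl oxidase, which crosslinks collagen and was picked out after its values were seen, stood at -0.36 on its brightest probe set and at -1.61 on 1448228_at (adjusted p = 0.0239 over probe sets). The 14 genes called in the 5 lists beside the members all lost their calls without the variance trend and without either cell body array. Limma called no gene at all in those fits. Without the filter on dim probe sets 11 of the 14 lost theirs, where limma called 70 of 18193 genes.

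**Figure D4:**
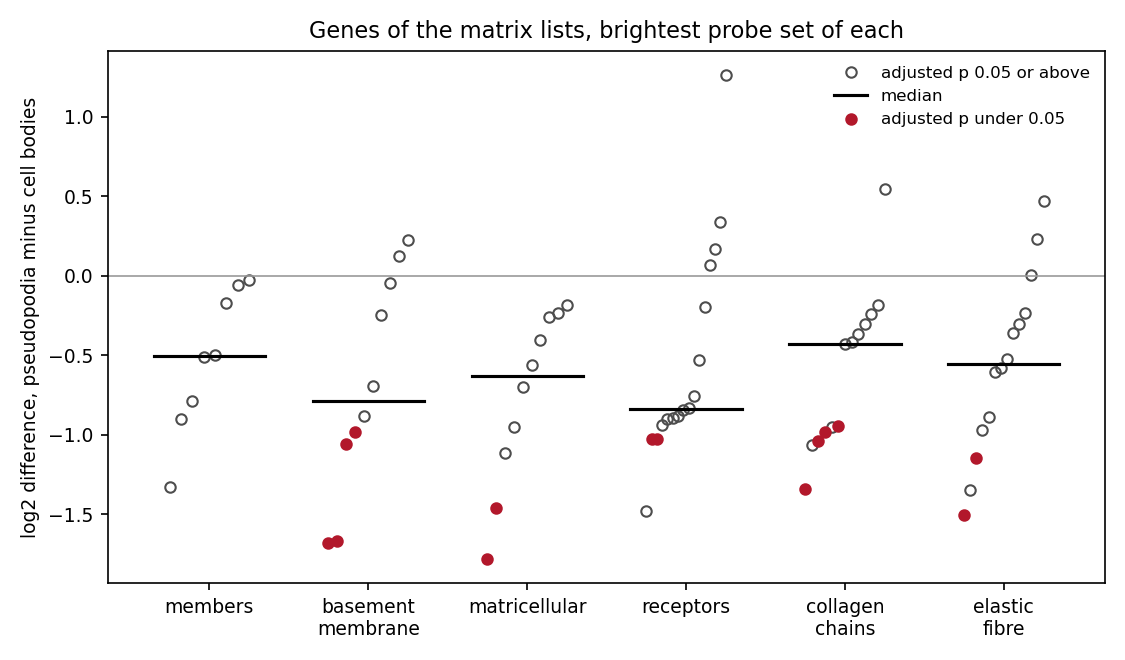
Log2 difference, pseudopodia minus cell bodies, of each measured gene by its brightest probe set, for the 8 member genes and 5 other lists. Filled points passed the threshold over genes, and lines are medians, which lie between -0.84 (receptors) and -0.43 (collagen chains).

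The genes whose 4 centred log2 values lay nearest to the mean of the 8 member genes were Foxf1, Extl2 and Tmem179b. Their Euclidean distances were 0.03, 0.05 and 0.05, over 4 arrays and 10952 genes compared, and 152 genes lay within 0.2. None of these 3 passed the test, with differences of -0.54, -0.52 and -0.51.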

How the data were processed

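Per the submitters' processing notes, the deposited values are MAS5 signals, 1 intensity for each probe set on each array. Their linear scale was read from the values, and the version, detection calls and scaling target are not given in the sources used here. The authors had scaled the arrays, since all 4 shared a trimmed mean of 250.002, with 2% cut at both ends. Low MAS5 signals are noisy, since mismatch probes are subtracted. Each array was rescaled to a trimmed mean of 500, and log2(signal + 32) was taken. The 22519 probe sets whose mean reached the median of the 45037 non-control ones were kept. The fractions were compared in R 4.3.3 with limma 3.58.1, two-sided, with lmFit and with eBayes fitting a trend of the variance. P-values were adjusted by the Benjamini-Hochberg method, and the threshold was 0.05. For gene lists the brightest kept probe set of each gene was used and p was adjusted over genes. A permutation of 2 against 2 arrays cannot go below p = 0.333, so none was run.

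The platform annotation gave 1 symbol to 34958 probe sets, several to 932 and none to 9211. No genome was used, so positions of probe sets and genes were not analysed here. All probe sets of the members are described. In the other lists, genes past the threshold are named (at most 6 a list), and others are marked as chosen after their values were seen or given to show the range. The members, lists and alternatives were chosen with earlier results of these data known.

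Per the file headers, same-numbered arrays were scanned on 1 day, and they share an experiment code in the labels, so the replicate number pairs the arrays. Over probe sets, deviations of same-numbered arrays correlated with r = 0.240. The procedure was tested on 20 simulated sets of 22519 probe sets, 200 of them changed. It recovered 3.3% of the shifts of 1 log2 unit and 51.6% of those of 2, with 5.26% of calls false. The simulated arrays had no replicate effect shared between fractions, and fewer probe sets were changed than the 1007 called in these data. The shares recovered depend on both settings, so they need not hold for these data. The number of arrays limits the precision.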

Additional observations from a re-analysis of the deposited data

How the results depend on the processing

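Probe set 1437218_at of Fn1 lay between -2.89 and -2.39 under all 13 alternatives. It was not past the threshold without the variance trend (adjusted p = 0.0647) or without cell body replicate 1 or 2 (0.153 and 0.139), fits in which limma called no probe set. At an unadjusted p under 0.05 those 3 fits had 4493, 2516 and 2979 probe sets (4995 as reported), and 5, 4 and 4 of the members (6 as reported). With 1 array left in a fraction, that array is assumed to vary like the other fraction. The counts reported were 1007 probe sets (245 higher), 309 genes and 1 member probe set. Without the filter they were 176, 70 and 1, with median centring 881, 199 and 1, and on hybridization controls 1608 (54 higher), 481 and 3. The last scaling moved the median of all probe sets to -0.32 and that of the members to -0.79. Without the variance trend all 3 counts were 0, and with the replicate block they were 4338, 1996 and 5. After quantile normalization 2 member probe sets passed, where that fit called 747 of all 22519 probe sets kept. Leaving out 1 array gave 0 to 4030 probe sets, 0 to 1759 genes and 0 to 5 members, with the members' median between -0.65 and -0.41. The highest counts came without pseudopodia replicate 1, when Thbs2 1422571_at (adjusted p = 0.0157), Lamc1, Sparc 1448392_at and Lamb1 1451241_at also passed. Without pseudopodia replicate 2 the members' median was -0.41, where that of all probe sets kept was 0.00078. Values not past the threshold changed sign in 9 cases, of which 1 was quantile normalization (Hspg2 1418669_at at 0.010). Leaving out 1 array moved Hspg2 1418669_at between -0.37 and 0.13, Sparc 1416589_at between -0.20 and 0.15, Sparc 1458204_at between -0.65 and 0.22, Fn1 1426642_at between -0.14 and 0.020, Tnc 1416342_at between -0.64 and 0.30, and Lamb1 1424113_at between -0.87 and 0.020. Of the 14 called genes of the other lists none changed sign. All 14 lost their call without the variance trend or without either cell body array, and 11 without the filter. The cause of these changes was not tested.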
